A study of Mus musculus with 2 samples.

Results

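The RUNX transcription factors, their partner CBF beta, the ETO family and the corepressors NCOR1 and HDAC1 were followed in single leukemia cells driven by AML1-ETO9a (AE9a), a fusion made from members of these families. The set holds 9 of the 31053 genes in the count tables. They were taken by symbol as the endogenous mouse partners of the fusion, whatever their values: Runx1, Runx2, Runx3, Cbfb, Runx1t1, Cbfa2t2, Cbfa2t3, Ncor1 and Hdac1. Cells sorted as GFP+ Lin- c-Kit+, meaning that they carried the GFP of the retrovirus and the Kit receptor and lacked markers of mature lineages, came from the spleens of sick recipient mice. Per the study's methods, the leukemia was made by infecting fetal liver cells with an MSCV virus that carries AE9a and GFP. Cells of both groups also carried a floxed Usp18 and UBCER-Cre, a recombinase made in all tissues that tamoxifen activates. One group of mice was injected with oil and the other with tamoxifen, and cells were sorted 3 days after the first injection. Each group is a pool from 3 mice, made into 1 library aimed at 8000 cells. The genotype labels are Usp18f/f for oil and Usp18delta/delta for tamoxifen, and the treatment labels of both groups name Usp18f/f cells. The study also describes a single-cell run of Usp18f/f against Usp18delta/delta leukemia cells. The treatment protocol text instead describes Usp18+/f cells and a heterozygous deletion. As these texts disagree, groups are named by their injection. Effects of tamoxifen itself and of the deletion cannot be told apart in this design, the labels give no age or sex, and the study's methods describe young adult mice of both sexes.

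RUNX proteins bind DNA through their runt domain, and CBF beta, which does not touch DNA, strengthens that binding. RUNX1, also called AML1, is needed for blood stem cells to form and for the maturation of megakaryocytes and lymphocytes. In a common human acute myeloid leukemia its runt domain is joined to most of ETO, the product of RUNX1T1, a corepressor that brings in NCOR proteins and histone deacetylases, and AE9a is a shorter form of that fusion that lacks the end of ETO.

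The matrices hold counts of unique molecular identifiers (UMIs), each standing for 1 captured transcript. After cells with under 500 genes or over 10% mitochondrial UMIs were left out, the oil-labelled library kept 6838 cells and 66045700 UMIs and the tamoxifen-labelled library 6472 cells and 60661486 UMIs, with medians of 8622.5 and 8209.5 UMIs per cell. Usp18 went against its label, with 371 UMIs in the oil-labelled library and 933 in the tamoxifen-labelled library, so directions below are between libraries as labelled. Usp18 is itself interferon-stimulated, and 17 of 20 measured interferon-stimulated genes, Usp18 among them, had a higher level in the tamoxifen-labelled library by an interval that covers counting error, with a median log2 ratio of 0.84. Where its UMIs lie relative to the deleted part is not known from these tables, so they do not check the deletion. The sort could be checked in part. Kit stood at 171 and 232 CPM, UMIs of a gene scaled to a common library total. All 6 T cell, 5 B cell, 4 NK cell and 8 neutrophil markers were under 1 CPM in both libraries. Cd34, a progenitor gene that the sort did not select on, had only 5 and 15 UMIs. Mast cell genes (11 markers, 2994 and 2762 CPM in sum) and erythroid genes (8 markers, 6280 and 7920 CPM) were present. The summed levels of macrophage (8.19 and 8.46 CPM), megakaryocyte (20.7 and 19.9 CPM) and endothelial markers (54.8 and 34.6 CPM) were lower. Nearly all of the endothelial sum was Egfl7, at 53.8 and 33.3 CPM and seen in 29.2% and 19.9% of cells. The libraries also differed in ribosomal protein genes (24.4% and 28.1% of UMIs) and in cells called G1 (45.5% and 59.5%), and 12 kept barcodes occurred in both. Neither group has a replicate library, so no test was run, and every interval below is a 95% interval of counting error alone.

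All members were detected, and Runx1 dominated them. Runx1 stood at 805 CPM in the oil-labelled library and 796 CPM in the tamoxifen-labelled library, rank 161 and rank 159 of all genes, followed by Ncor1 at 298 and 301 CPM, Cbfa2t3 at 135 and 143 CPM and Hdac1 at 107 and 92.6 CPM. Cbfb stood at 65.9 and 59.8 CPM, Runx3 at 47.6 and 50.8 CPM, Runx1t1 at 24.6 and 30.2 CPM, Runx2 at 17.7 and 21.2 CPM, and Cbfa2t2 at 14.2 and 13.1 CPM. The order was the same in both libraries, and within each library no interval overlapped that of its neighbour in the order. The 3′ assay counts a transcript once whatever its length, so these levels can be set side by side, although capture may differ between genes. Together the 9 genes held 0.152% and 0.151% of UMIs. The tables have no entry for the transgene, so reads of AE9a that match mouse Runx1 or Runx1t1 cannot be told apart from endogenous transcripts of these genes.

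Differences between the libraries were small. The log2 ratio of CPM, tamoxifen-labelled library over oil-labelled library, ran from -0.20 for Hdac1 to 0.30 for Runx1t1, a change of at most 1.23-fold. Its interval lay above 0 for 4 of 9 members (Runx1t1, Runx2, Runx3 and Cbfa2t3), against 19.3% of the 10527 measured genes, those whose UMIs over both libraries reached 100. It lay below 0 for 2 members (Hdac1 and Cbfb), against 39.8% of all genes, and included 0 for the other 3, against 40.9%. Under a stricter filter that left 673 and 771 cells, the intervals of all 4 members above 0 included 0. No member reached a 1.5-fold difference, which 2.09% of genes reached upward and 1.27% downward. The median ratio of the members was 0.012 and that of all measured genes -0.063. Intervals narrow as counts grow, so these shares depend on level as well as on the size of a difference.

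**Figure D1:**
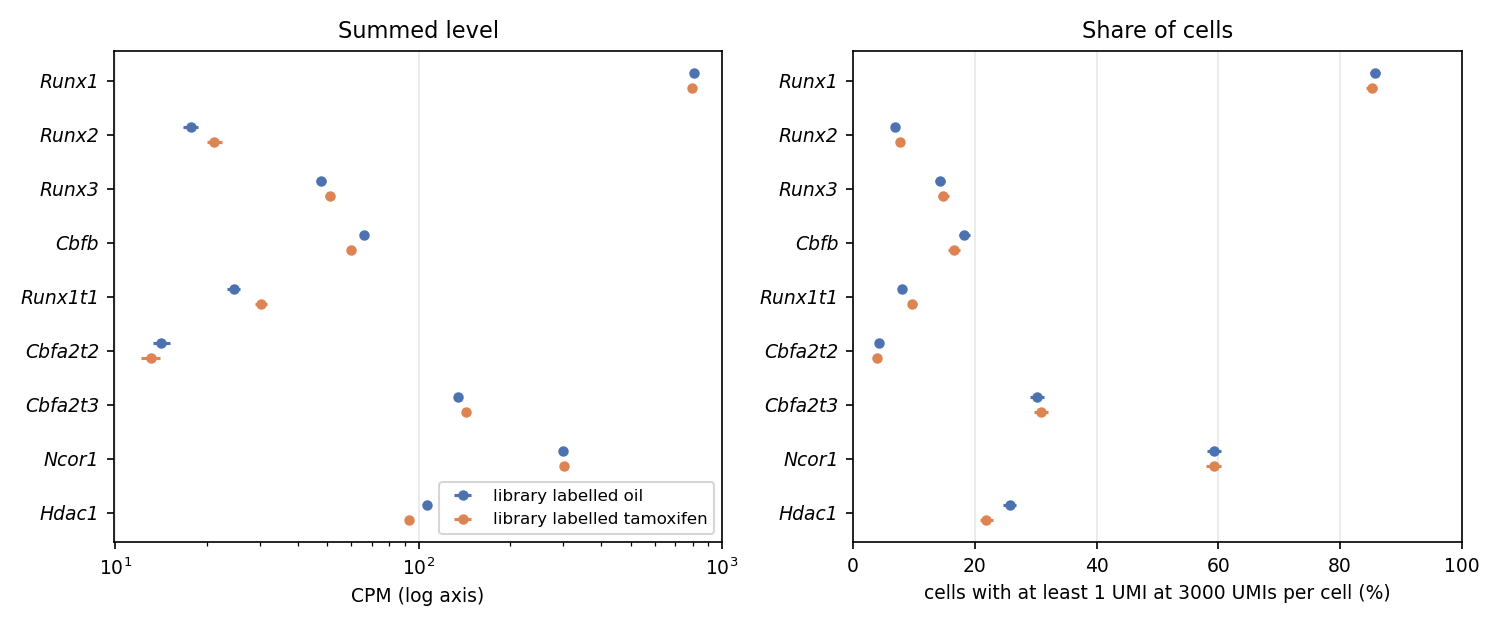
Level and share of cells of the 9 genes in the oil-labelled library (blue) and the tamoxifen-labelled library (orange), 1 library each. Left, CPM on a log axis with Poisson intervals; right, the percentage of cells with at least 1 UMI after thinning to 3000 UMIs, with Clopper-Pearson intervals. Runx1 stands highest at 805 and 796 CPM, and the libraries lie close together for every gene.

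Of the RUNX genes, Runx1 (ENSMUSG00000022952, chromosome 16, 92601466 to 92826149, minus strand, GRCm38), the factor that the fusion takes its DNA binding from, had 53195 UMIs in the oil-labelled library and 48261 in the tamoxifen-labelled library. Its log2 ratio was -0.018 (-0.036 to 5.4e-05), whose sign changed to 0.048 (0.030 to 0.066) with TMM scaling, so the direction of this small difference is set by the scaling. It made up 92.5% and 91.7% of all RUNX UMIs. At 3000 UMIs per cell, 85.8% (84.9 to 86.6) and 85.2% (84.3 to 86.1) of cells had a Runx1 UMI, and without thinning 96.4% of cells had one in both libraries. Single cells held up to 47 and 42 UMIs of Runx1.

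Runx2 (ENSMUSG00000039153, chromosome 17, 44495987 to 44814797, minus strand), best known as the master regulator of bone-forming cells, was the RUNX gene with the fewest UMIs, 1170 in the oil-labelled library and 1287 in the tamoxifen-labelled library. Its log2 ratio was 0.26 (0.14 to 0.38). A Runx2 UMI was seen in 6.81% (6.20 to 7.46) and 7.70% (7.05 to 8.40) of thinned cells. The excess in the tamoxifen-labelled library depended on which cells were counted, and is taken up with the cell cycle below.

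Runx3 (ENSMUSG00000070691, chromosome 4, 135120652 to 135177990, plus strand), which acts in cytotoxic T cells and in sensory neurons, had 3147 UMIs in the oil-labelled library and 3083 in the tamoxifen-labelled library. Its log2 ratio was 0.093 (0.021 to 0.17). Without the cells of cluster 6, described below, the interval included 0 (0.054, -0.020 to 0.13), a setting chosen after seeing the data. The share of thinned cells with a Runx3 UMI was 14.3% (13.4 to 15.2) and 14.8% (13.9 to 15.7).

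The 3 RUNX genes share a sequence at their upstream promoter, the distal one where RefSeq lists a pair, and it is shown because it ties the genes of the family together and carries the motif that RUNX proteins bind. In 300-base promoters from RefSeq (GRCm38.p6), 250 bases before and 50 after each start, an identical run of 18 bases was found in all 3. The capitals below mark that run, which holds the RUNX motif in reverse complement (ACCACA) at 2 places, 5′ to 3′ on the strand of the gene.
Runx1 (chr16:92826026-92826053, minus strand): ataaaCAACCACAGAACCACAAGttggg
Runx2 (chr17:44814584-44814611, minus strand): acaaaCAACCACAGAACCACAAGtgcgg
Runx3 (chr4:135120504-135120531, plus strand): tccctCAACCACAGAACCACAAGgccag
With the first transcribed base counted as 1, the run began at position 27 in Runx1, 22 in Runx2 and -136 in Runx3. It occurred in 4 of 32851 promoters (0.0122%), those of the RUNX genes and of Gm16225, whose promoter lies on the opposite strand of the same bases as that of Runx3. The motif itself, TGTGGT or TGCGGT on either strand, was found in 22.4% of all promoters, and at least 2 matches in 2.86%. Of the 7 members with a promoter in the table, 5 of 11 promoters held a match: these 3, 1 of Cbfa2t3 and 1 of Ncor1. The matches outside the RUNX genes are given for comparison, with the motif in capitals.
Cbfa2t3 (chr8:122699217-122699244, minus strand): ccccgacccccACCGCAttatcactgtg
Ncor1 (chr11:62438729-62438756, minus strand): gtgagctgctaTGTGGTgctgggaattg
Ncor1 (chr11:62438592-62438619, minus strand): tgcctggaaatTGTGGTtttgtttgtat
A match describes letters and not a bound site, and 3′ counts do not show which promoter of a gene was used.

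Cbfb (ENSMUSG00000031885, chromosome 8, 105170674 to 105217989, plus strand), the non-DNA-binding subunit that all RUNX proteins share, had 4350 UMIs in the oil-labelled library and 3627 in the tamoxifen-labelled library. Its log2 ratio was -0.14 (-0.20 to -0.076), and with mitochondrial and ribosomal protein genes left out of the total it was -0.059, with an interval that included 0 (-0.12 to 0.0049). A Cbfb UMI was seen in 18.3% (17.3 to 19.3) and 16.5% (15.6 to 17.5) of thinned cells. Cbfb thus stood far below Runx1 in both libraries, and lower in the tamoxifen-labelled library.

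The ETO family was led by Cbfa2t3 (ENSMUSG00000006362, chromosome 8, 122625141 to 122699109, minus strand), also called Eto2, a corepressor of the erythroid and megakaryocytic lineages that works with TAL1 and GATA1. It had 8896 UMIs in the oil-labelled library and 8683 in the tamoxifen-labelled library, which was 77.6% and 76.8% of the UMIs of the 3 ETO genes. Its log2 ratio was 0.088 (0.045 to 0.13), and 30.2% (29.1 to 31.4) and 30.9% (29.7 to 32.1) of thinned cells had a UMI. Without thinning the share pointed the other way, 58.0% against 56.9%.

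Runx1t1 (ENSMUSG00000006586, chromosome 4, 13743436 to 13893649, plus strand), the mouse gene for ETO itself, had the highest ratio of the members. It had 1624 UMIs in the oil-labelled library and 1831 in the tamoxifen-labelled library, with a log2 ratio of 0.30 (0.20 to 0.39). A UMI was seen in 8.04% (7.38 to 8.74) of thinned cells against 9.68% (8.95 to 10.4), a difference of 1.64 percentage points (0.639 to 2.64). Cbfa2t2 (ENSMUSG00000038533, chromosome 2, 154436481 to 154539356, plus strand), the third ETO gene, was the lowest member, with 937 and 794 UMIs and a log2 ratio of -0.12 (-0.25 to 0.022), or -0.16 (-0.30 to -0.015) without the cells of cluster 6. It was seen in 4.31% (3.83 to 4.84) and 3.93% (3.46 to 4.45) of thinned cells, a difference not detectable at this depth.

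Of the corepressors, Ncor1 (ENSMUSG00000018501, chromosome 11, 62316426 to 62458541, minus strand), the scaffold that joins histone deacetylases to DNA-bound repressors, had 19712 UMIs in the oil-labelled library and 18254 in the tamoxifen-labelled library. Its log2 ratio was 0.012 (-0.017 to 0.041), which 3 other scalings moved to between 0.075 and 0.092 with intervals above 0, and 59.3% (58.1 to 60.5) and 59.2% (58.0 to 60.5) of thinned cells had a UMI. Hdac1 (ENSMUSG00000028800, chromosome 4, 129516104 to 129542713, minus strand), a histone deacetylase, was the member lowest in the tamoxifen-labelled library relative to the oil-labelled library. Its 7039 and 5615 UMIs gave a log2 ratio of -0.20 (-0.25 to -0.15), and it was seen in 25.7% (24.6 to 26.8) and 21.9% (20.9 to 23.0) of thinned cells. The share of cells and the summed level of Hdac1 therefore moved in the same direction.

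Shares of cells could not be set against cells that lack these genes, since all cells belong to 1 sorted population. A thinned cell held a median of 2 of the 9 members in both libraries, and 2.10% and 2.66% of thinned cells held none of them.

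Cells were next split by cell cycle phase, since the libraries differ in their phases and none of the members serves to call a phase. Both libraries gave the same order: Runx1, Runx2, Runx3, Runx1t1 and Ncor1 were higher in G1 than in S and in G2M, with every interval on that side of 0, and Hdac1 was lower in G1. Runx2 differed most. It stood at 38.0 CPM in G1, 9.60 CPM in S and 7.96 CPM in G2M in the oil-labelled library, and at 32.8, 11.3 and 11.5 CPM in the tamoxifen-labelled library. Its log2 ratio of G2M over G1 was -2.25 (-2.49 to -2.03) and -1.52 (-1.74 to -1.30), beside medians over all genes of -0.12 and -0.11. Runx1t1 stood at 35.9, 15.7 and 22.0 CPM in G1, S and G2M of the oil-labelled library and at 38.3, 19.8 and 25.1 CPM in the tamoxifen-labelled library. Runx1 went from 1111 CPM in G1 to 642 CPM in G2M in the oil-labelled library, and from 990 to 598 CPM in the tamoxifen-labelled library. Hdac1 ran the other way, with 91.3 CPM in G1 and 115 CPM in S in the oil-labelled library and 77.6 and 104 CPM in the tamoxifen-labelled library. Cbfa2t2 showed no phase difference beyond its intervals. Cells of the mostly G1 clusters described below were shallower, with medians of 4491 to 8542.5 UMIs against 16174 and 12599 in clusters 1 and 2, and the part of depth in these values was not tested.

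Within phases, several library ratios differed from those over all cells. Runx2, higher over all cells in the tamoxifen-labelled library, was lower there among G1 cells (-0.21, -0.36 to -0.067) and higher among G2M cells (0.53, 0.24 to 0.81). With both libraries given the same phase shares, its ratio was 0.00032. Runx3 was also lower in G1 (-0.13, -0.24 to -0.026) and higher in S (0.15, 0.012 to 0.28), and it was 0.019 with equal phase shares. The G1 intervals of Runx2 and Runx3 both included the median over all genes in G1, -0.092. With every cell given the same weight, the ratios were 0.13 for Runx2 and 0.015 for Runx3, and what moves them was not tested.

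Runx1, level over all cells, was lower in the tamoxifen-labelled library within each phase: -0.17 (-0.19 to -0.14) in G1, -0.056 (-0.092 to -0.019) in S and -0.10 (-0.14 to -0.067) in G2M. The medians over all genes in these phases were -0.092, -0.073 and -0.080, so the S value lies above the median of all genes and the other values below it. Ncor1 was lower in G1 (-0.13, -0.17 to -0.084), and its intervals in S and G2M included 0. Runx1t1 had positive ratios in all phases, 0.091 (-0.051 to 0.23) in G1, 0.33 (0.10 to 0.56) in S and 0.19 (0.0073 to 0.37) in G2M, and 0.17 with equal phase shares. Hdac1 was negative in all phases, -0.23 (-0.33 to -0.14) in G1, -0.15 (-0.24 to -0.055) in S and -0.077 (-0.16 to 0.0071) in G2M, and Cbfb likewise, at -0.20, -0.095 and -0.14. Cbfa2t3 was higher in S (0.22, 0.14 to 0.30), with intervals that included 0 in G1 and G2M.

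**Figure D2:**
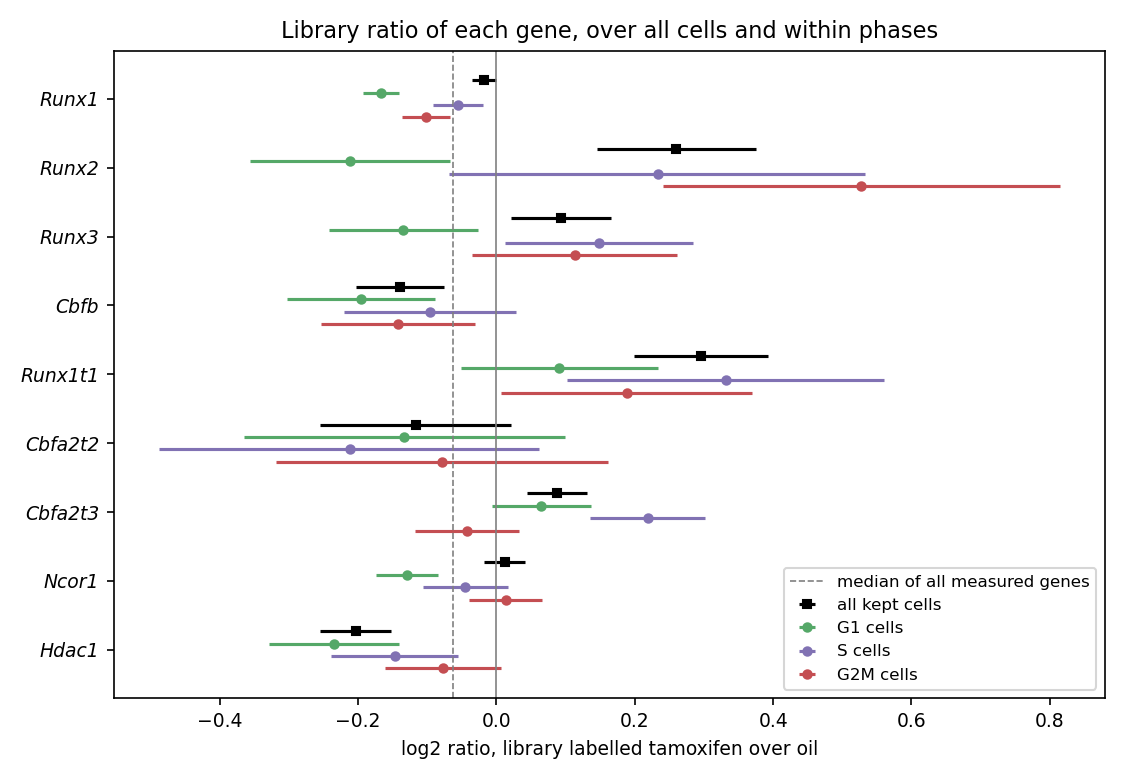
Log2 ratio of CPM, tamoxifen-labelled library over oil-labelled library, for each gene over all kept cells (black squares) and within cells called G1, S and G2M (green, purple and red points), with conditional binomial intervals. The solid line is 0 and the dashed line the median of all measured genes over all cells, -0.063. Runx2 is at 0.26 over all cells, at -0.21 in G1 and at 0.53 in G2M.

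The 13310 cells fell into 9 clusters, numbered by size from 0. The members were kept out of the genes used for clustering. Genes that differed at least 1.5-fold between the libraries, and other groups listed with the processing, were kept out too. Clusters are not named as cell types. Clusters 0, 3, 4 and 6 were mostly G1 cells, and clusters 1, 2, 5 and 7 mostly cells in S or G2M. Cluster 6 had 45 cells of the oil-labelled library and 455 of the tamoxifen-labelled library, so it may be that library and not a kind of cell. Cluster 8 had 218 cells with a median of 1183 UMIs and 1.09% mitochondrial UMIs, against 4491 or more UMIs in the others.

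Runx2 varied most across clusters, 8.38-fold from 64.1 CPM (54.5 to 74.8) in cluster 6 to 7.65 CPM (6.69 to 8.71) in cluster 2. It was also high in clusters 0 and 3, at 43.6 and 40.8 CPM. Runx1t1 followed with 4.99-fold, from 78.8 CPM (50.5 to 117) in the shallow cluster 8, which rests on 24 UMIs, to 15.8 CPM (14.4 to 17.3) in cluster 2. Runx3 was highest in clusters 6 and 3, at 88.5 CPM (77.2 to 101) and 80.5 CPM (75.8 to 85.5), intervals that overlap, and lowest in cluster 7, at 31.9 CPM (25.9 to 38.8). These genes were therefore all high in the G1 clusters 3 and 6.

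Runx1 varied 1.95-fold and was present in every cluster, from 1191 CPM (1174 to 1208) in cluster 0 and 1138 CPM (1120 to 1157) in cluster 4 to 611 CPM (595 to 626) in cluster 5. Ncor1 was highest in clusters 0 and 7, at 521 CPM (510 to 533) and 510 CPM (485 to 536), and lowest in cluster 2, at 233 CPM (227 to 238). Cbfa2t3 was high in clusters 8, 0 and 4 and lowest in cluster 5, at 78.8 CPM (73.3 to 84.6). Cbfb was highest in cluster 3, at 86.9 CPM (82.0 to 92.1), and lowest in cluster 4, at 42.5 CPM (39.0 to 46.1). Hdac1 was highest in the S phase cluster 2, at 111 CPM (107 to 115), beside 109 CPM (106 to 113) in cluster 1, and lowest in cluster 6, at 45.3 CPM (37.3 to 54.4).

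**Figure D3:**
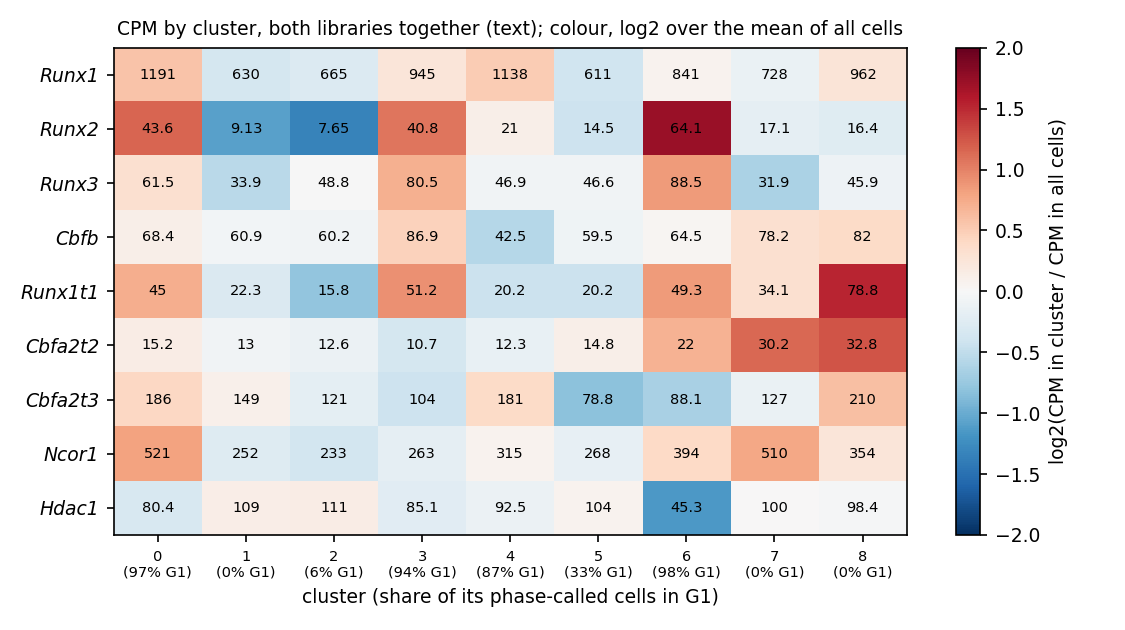
CPM of each gene in each of 9 clusters with both libraries summed (printed in the cells), coloured by the log2 of that CPM over the CPM in all cells. Under each cluster stands the percentage of its cells called G1, among cells of at least 3000 UMIs. Runx2 runs from 7.65 CPM in cluster 2 to 64.1 CPM in cluster 6, where Hdac1 is lowest at 45.3 CPM.

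Within clusters, Hdac1 and Cbfb were lower in the tamoxifen-labelled library in 9 of 9 clusters, with intervals below 0 in 6 clusters for Hdac1 and in 2 for Cbfb. The lowest Hdac1 ratio was that of cluster 6, with 18 UMIs in the oil-labelled library and 95 in the tamoxifen-labelled library (118 and 40.5 CPM, log2 ratio -1.54, -2.28 to -0.72). In cluster 5, Cbfb was at 82.1 and 49.6 CPM, a log2 ratio of -0.73 (-0.97 to -0.48). Runx1t1 was higher in the tamoxifen-labelled library in 8 of 9 clusters, with intervals above 0 in clusters 0, 1 and 2. Runx1 was lower in 7 of 9 clusters, with 6 intervals below 0. The median of all measured genes was itself below 0 in every cluster, from -0.14 in cluster 5 to -0.014 in cluster 7. Runx1 lay near it in clusters 0 (-0.051 against -0.047), 1 (-0.055 against -0.061) and 4 (-0.070 against -0.079). It lay well below it in cluster 6 (-0.51, -0.73 to -0.28, against -0.076), with 178 UMIs in the oil-labelled library. In clusters 7 (0.087, -0.045 to 0.22) and 8 (0.085, -0.30 to 0.46) it was above 0, with intervals that included 0.

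The log2 ratio of Cbfa2t3 had its interval above 0 in 5 clusters, among them cluster 7 at 0.59 (0.29 to 0.89), and below 0 in cluster 5, at -0.50 (-0.72 to -0.29). There it stood at 99.2 CPM in the oil-labelled library and 69.9 CPM in the tamoxifen-labelled library. Runx2 was higher in the tamoxifen-labelled library in cluster 7 (27 and 26 UMIs, 12.1 and 29.4 CPM) and lower in clusters 3 and 4. Without the cells of cluster 6, its ratio over all cells was 0.14 (0.023 to 0.26).

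Cells were then ranked by other programmes, and the top 10% of each library was set beside the rest. Among the cells highest in Kit, Runx2 stood at 66.2 CPM against 15.4 CPM in the rest of the oil-labelled library and at 65.7 against 18.8 CPM in the tamoxifen-labelled library. Runx1t1 stood at 75.5 against 22.2 CPM and at 85.8 against 27.2 CPM, and Runx3 at 96.2 against 45.3 CPM and 88.4 against 48.8 CPM. Hdac1 was lower in these cells, at 84.2 against 108 CPM and 67.7 against 93.9 CPM. The cells highest in mast cell genes showed the same directions for these 4 genes, with log2 ratios of 1.86 and 1.29 for Runx2 and 1.57 and 1.47 for Runx1t1, although the Kit-high and mast-high cells were both shallow, with medians of 4069.5 to 4481 UMIs against 8813 to 9430.5 in the rest.

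The cells highest in erythroid genes shared some of these directions and not others. Cbfa2t3 stood at 221 against 128 CPM in the oil-labelled library and at 251 against 134 CPM in the tamoxifen-labelled library, the largest excess of any member there. Ncor1 was at 406 against 290 CPM and 426 against 290 CPM. It was also higher in the Kit-high cells (451 against 291 and 385 against 296 CPM) and the mast-high cells (466 against 290 and 391 against 296 CPM). As in those cells, Hdac1 was lower in the erythroid-high cells (log2 ratios of -0.33 and -0.46) and Runx2 higher (0.42 and 0.35). Runx1t1 was not raised, at -0.15 (-0.44 to 0.13) and -0.30 (-0.57 to -0.033). Both intervals included the medians over all genes in this comparison, -0.094 and -0.14. Runx3 was lower, at 34.0 against 48.7 CPM and 29.6 against 52.7 CPM, as was Cbfb, at 51.6 against 67.0 CPM and 38.0 against 61.7 CPM. In the cells highest in interferon-stimulated genes, the genes that USP18 restrains, Runx1 was at 1061 against 789 CPM and 1073 against 773 CPM. These log2 ratios of 0.43 and 0.47 were not particular to those cells. Those of Runx1 were 0.55 and 0.57 for mast cell genes, 0.48 and 0.40 for Kit, and 0.37 and 0.20 for erythroid genes. The medians over all genes were 0.060 and 0.019 for interferon-stimulated genes and 0.16 and 0.14 for mast cell genes. They were 0.17 and 0.15 for Kit and, as given above, below 0 for erythroid genes. The Runx1 ratios therefore do not share a baseline and are not ranked. Runx3 did not differ detectably in the interferon-high cells, with log2 ratios of -0.0029 (-0.22 to 0.21) and -0.014 (-0.21 to 0.18). The median UMIs of the erythroid-high cells were 6210.5 and 6249 against 8982 and 8390, those of the interferon-high cells 4774 and 6443 against 9132.5 and 8476, and what depth contributes was not tested.

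The genes whose levels ran most like a member's were sought over 15 combinations of cluster and library with at least 100 cells, among 6000 genes. These points share libraries, phases and depth, and the values are descriptions. For Runx2 they were Ankrd12 (Pearson r = 0.98) and Igf1r (0.97), and for Runx1t1 Zeb1 (0.97) and Arid1b (0.96). For Runx1 they were Il4ra (0.94) and Lat2 (0.93), for Runx3 Itgal (0.91) and Unc119 (0.90), and for Cbfb Zc3h8 (0.89) and Ptpn2 (0.88). Cbfa2t3 ran most like Gid8 (0.92) and Stx2 (0.86), Ncor1 like Med13l (0.97) and Ptpn1 (0.96), and Hdac1 like Acat1 and Commd1 (0.98 each). Among the members, Runx2 and Runx3 ran most alike (0.80), and Runx2 and Hdac1 were most opposed (-0.78).

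Other genes of the pathway were compared from lists chosen with earlier results of these data known. Their counts stand beside shares of 19.3% above 0 and 39.8% below 0 over all measured genes, and the lists are small. Of 14 partners of the corepressor complex, 2 had an interval above 0 and 7 below, with a median log2 ratio of -0.099. Gps2, a subunit of the NCOR complex, was highest, at 59.8 CPM in the oil-labelled library and 81.3 CPM in the tamoxifen-labelled library (0.44, 0.38 to 0.51), followed by Tbl1xr1 (0.094) and Kdm1a (0.059). Rbbp7, a histone chaperone of deacetylase complexes, was lowest, at 155 and 123 CPM (-0.33, -0.37 to -0.28), and Hdac3 (-0.27) was also among the lowest. Hdac2, the closest relative of Hdac1, was at 53.1 and 44.1 CPM (-0.27, -0.34 to -0.20), and Hdac1, Hdac2 and Hdac3 thus all stood lower in the tamoxifen-labelled library. Hdac2 was singled out after its value was seen.

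Of 11 coactivators and modifiers of RUNX1, 3 were above 0 and 5 below, with a median of -0.042. Kat6a, an acetyltransferase that RUNX1 recruits, was highest (0.17, 0.10 to 0.24), then Ccnd3 (0.051) and Crebbp (0.050). The arginine methyltransferase Prmt1 was lowest, at 232 and 176 CPM (-0.40, -0.44 to -0.37), then Carm1 (-0.30) and Dnmt1 (-0.30). Of 13 measured genes listed as DNA binding partners of the fusion complex, 4 were above 0 and 5 below, with a median of 0.0015. The list also holds cofactors, such as Lmo2, that do not bind DNA themselves. Erg (0.29, -0.14 to 0.72), Tcf4 (0.22) and Gata1 (0.081) were highest, and Tcf3 (-0.23), Lmo2 (-0.19) and Gata2 (-0.18) lowest. Cebpa, a myeloid factor, had no UMI in either library.

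Of 21 listed target genes of RUNX1, only 7 could be measured, and 7 had no UMI in either library, among them Elane, Csf2 and Il3. Of the 7 measured, 2 were above 0 and 5 below, with a median of -0.14. The platelet integrin Itga2b, at 6.43 and 9.20 CPM (0.52, 0.33 to 0.70), was highest, then Itgal (0.11) and Spi1 (-0.12). Ctsg, a granule protease with 93 and 39 UMIs (-1.13, -1.71 to -0.58), was lowest, then Gp1ba (-0.42) and Myh10 (-0.15). Of 12 measured AML1-ETO responsive genes, 5 were above 0 and 4 below, with a median of -0.036. Bcl2, a survival gene with 198 and 273 UMIs (0.59, 0.32 to 0.86), the cell cycle inhibitor Cdkn1a (0.56) and Sphk1 (0.32) were highest, and Pole (-0.37), Egr1 (-0.31) and Id1 (-0.30) lowest.

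**Figure D4:**
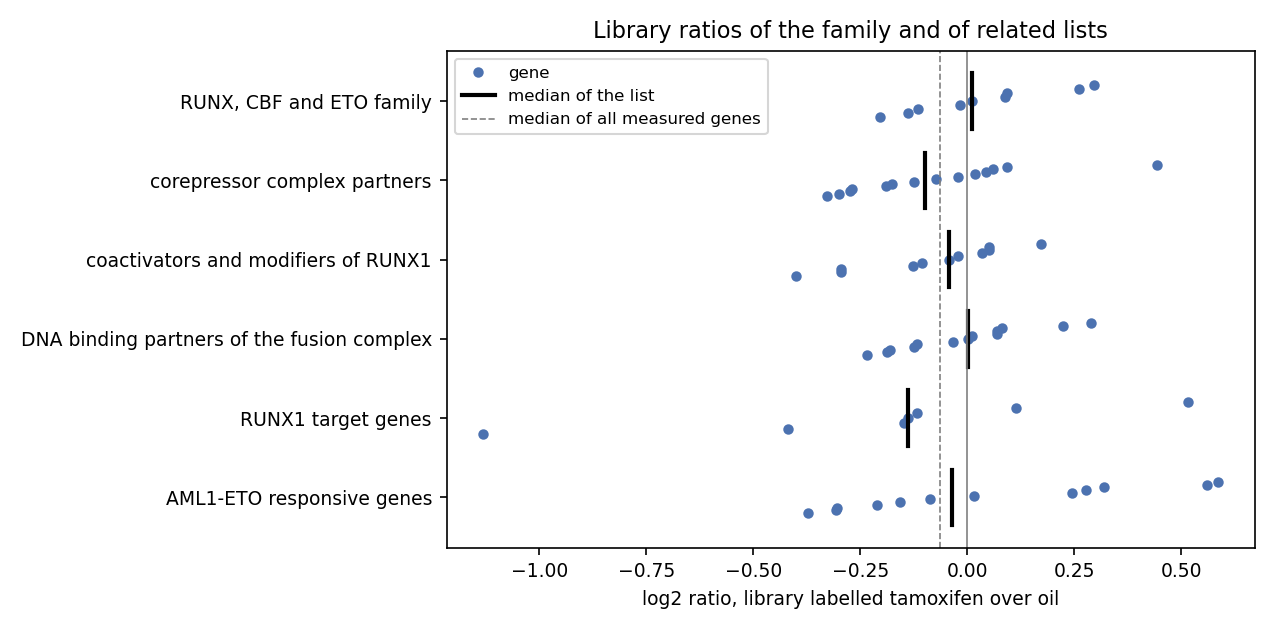
Log2 ratio of CPM, tamoxifen-labelled library over oil-labelled library, of every measured gene (points, sorted within a list) in the 9-gene family and in 5 related lists. Black bars are list medians, the solid line is 0 and the dashed line the median of all measured genes, -0.063. The list medians lie between -0.14 and 0.012.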

How the data were processed

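Single-cell RNA libraries of both groups were read from the deposited matrices of UMI counts, which the authors made with Cell Ranger 3.0.2 on mm10 from the 10x 3′ V3 kit, and which carry no normalization. The submitters' notes also name Seurat, whose settings were not used here. The members, gene lists and naming rule (all members, the 3 highest and 3 lowest of each pathway list, the 2 genes most like each member of at least 20 CPM) were chosen with earlier results of these data known. The result for 1 gene that this rule names is not reported here.

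Cells with fewer than 500 genes or more than 10% mitochondrial UMIs were dropped. Counts were summed per library and divided by the library total (CPM, exact Poisson interval). Ratios have exact conditional binomial intervals and shares exact Clopper-Pearson intervals, all at 95%. These steps were run on simulated Poisson and binomial counts, the models that the intervals assume, so their coverage there was set in advance. Real counts varied more among cells, with a variance over mean of 4.29 (oil-labelled) and 4.22 (tamoxifen-labelled) for unthinned Runx1, which was not simulated. Before shares and phases were taken, UMIs were drawn once down to 3000 per cell (thinning), which left out 508 and 345 cells. Phases were called with the S (43 genes) and G2M (54 genes) lists of Seurat. Clusters came from Seurat with 2000 variable features, of which 1782 were used, 20 principal components and resolution 0.5. Left out were the members, interferon-stimulated genes, mitochondrial and histocompatibility genes, and genes of the X and Y chromosomes. Measured genes that differed at least 1.5-fold between the libraries were left out as well. Scrublet marked 0.0731% and 0% of cells and so did not work, and doublets were kept. Gene positions are those of GENCODE M21 on GRCm38, in which 31011 of 31053 identifiers were found, and promoters are those of RefSeq. Comparisons of protein sequence were not made here. Clustering and phases used Seurat 5.3.0 in R 4.3.3, intervals scipy 1.17.1 in Python 3.11.15, doublet scores scanpy 1.11.5, plots matplotlib 3.10.9, and alternative scalings edgeR 4.0.16 and DESeq2 1.42.0.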

Additional observations from a re-analysis of the deposited data

Results flagged for a closer look

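Runx2 had ratios of opposite sign in different phases, with a log2 ratio of 0.53 in G2M cells and -0.21 in G1 cells, and in different clusters, with 1.28 in cluster 7 and -0.39 in cluster 4. Runx3 likewise had 0.15 in S cells and -0.13 in G1 cells. In G1 cells the median over all genes was -0.092, which lies within the intervals of Runx2 and Runx3. In cluster 4 that median was -0.079, within the interval of Runx2. Cbfa2t3 had 0.59 in cluster 7 and -0.50 in cluster 5. In each pair both counting intervals lie on their own side of 0, but each group is 1 library, so these differences were not tested.

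Barcodes dropped by the filter on cells entered no comparison above. Among them Runx1 had 4054 UMIs in the oil-labelled library and 3830 in the tamoxifen-labelled library, a log2 ratio of -0.14 (-0.20 to -0.076), and the 363 and 289 UMIs of Hdac1 gave a log2 ratio of -0.39 (-0.62 to -0.16). The intervals of the other 7 members included 0 there.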

How the results depend on the processing

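No paired analysis was possible because there is 1 library in each group. Of 99 log2 ratios of members under the alternatives, 69 stayed within the counting interval, 30 moved beyond it, and no ratio whose interval excluded 0 changed sign. Scalings shifted all genes alike, by 0.065 with TMM, 0.063 with the median ratio and 0.080 without mitochondrial and ribosomal protein genes. The ratios then became, in that order, 0.048, 0.045 and 0.063 for Runx1, 0.15, 0.15 and 0.17 for Cbfa2t3, 0.077, 0.075 and 0.092 for Ncor1 and -0.14, -0.14 and -0.12 for Hdac1. Cbfb became -0.074 with TMM and -0.059 without those genes, and Runx3 0.17 without them. With phase shares set equal, Runx1 was -0.12, Runx2 0.00032, Runx3 0.019, Runx1t1 0.17, Ncor1 -0.062 and Hdac1 -0.15. With every cell given the same weight, Runx2 was 0.13, Runx3 0.015, Ncor1 -0.032 and Hdac1 -0.28. The stricter filter on cells (1000 genes or more, 5% mitochondrial UMIs or less) left 673 and 771 cells and gave 0.025 for Runx1, -0.27 for Cbfb, 0.063 for Ncor1 and -0.32 for Hdac1. With these fewer cells the intervals of Runx2 (-0.12 to 0.54), Runx3 (-0.12 to 0.40), Runx1t1 (-0.025 to 0.54) and Cbfa2t3 (-0.063 to 0.22) included 0. Without the cells of highest Scrublet score that of Runx3 did too (0.064, -0.011 to 0.14). Leaving out cluster 6, chosen after seeing the data, gave 0.14 for Runx2. Leaving out barcodes found in both libraries, also chosen then, moved no ratio beyond its interval. What causes such shifts was not tested. Counts of genes past 1.5-fold, 220 upward and 134 downward, became 572 and 370 when 20 UMIs sufficed and 105 and 73 when 500 were required, because the number of low genes counted changed. Differences in shares moved in 6 of 27 cases and folds across clusters in 8 of 27, with Runx2 between 5.23-fold and 12.4-fold. At these depths Cbfa2t2 limits precision most, with 937 and 794 UMIs.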
